A study of Mus musculus with 3 samples.

Results

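The genes for the cyclin-dependent kinase (CDK) inhibitors of the Cip/Kip family (Cdkn1a, Cdkn1b and Cdkn1c) and of the Ink4 family (Cdkn2a, Cdkn2b, Cdkn2c and Cdkn2d) were measured in mouse embryonic fibroblasts (MEF) and embryonic stem (ES) cells. They were found on the array by the gene symbol printed in the scanner files, which gave 10 of 41174 non-control probes for the 7 genes. Each group was 1 sample on 1 array, so there were 3 arrays in all. The groups were p53-null MEF, MEF (p53 wild type in the words of the series design) and ES cells, and all of them carried a Nanog-GFP reporter. The series asks what p53 does when fibroblasts are made into induced pluripotent stem (iPS) cells, and its design sets p53-null MEF against MEF and ES cells against MEF. The labels give no embryo age, passage, strain, clone or number of embryos, and do not state the p53 genotype of the ES cells. With 1 array a group there is no replicate check, no test between samples and no p-value, and each difference describes these arrays.

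CDKs drive the cell cycle when bound to cyclins, and CDK inhibitors hold them back. Ink4 proteins bind Cdk4 and Cdk6 and keep them from D-type cyclins, whereas Cip/Kip proteins bind a wider range of cyclin and CDK pairs, above all those of Cdk2. The Cdkn2a gene also encodes the Arf protein from another first exon and another reading frame. Arf restrains Mdm2, the ubiquitin ligase that destroys p53, and p53 in turn activates Cdkn1a. Fibroblasts kept in culture are known to raise several of these genes, and mouse ES cells are known for a short G1 phase.

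Each probe is a 60-base oligonucleotide, and its position is given on mouse build mm8, as in the newer of the deposited design files. Where a probe lies within its transcript (coding or untranslated) was not looked up, as mm8 sequence was not used here. A stretch of 30 bases, 5′ to 3′, is shown for the probes on which the results turn. The first line belongs to the gene with the largest difference between the fibroblast arrays. The next lines belong to the Cdkn1b probes, which gave unlike differences, and to the Cdkn2a probe, which reads the Ink4a and Arf transcripts together. The last lines show the Cdkn2c probes, where capitals mark bases that both of them hold. Lines without capitals show the first 30 bases of the probe, the first Cdkn2c line starts at base 11 and the second at base 1.
Cdkn1a: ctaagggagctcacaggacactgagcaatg
Cdkn1b probe 1: ttcattgcctgtgtatgagaaaaacttgga
Cdkn1b probe 2: agtcagcgcaagtggaatttcgactttcag
Cdkn1b probe 3: attagccaagcaaccataagactctagtca
Cdkn2a: cacttctagcgatgctagcgtgtctagcat
Cdkn2c probe 1: ctcacactgtCCGTTAGTTGGTTGGCTGTC
Cdkn2c probe 2: CCGTTAGTTGGTTGGCTGTCCGTTTCACTA

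The Cdkn2c probes shared a run of 40 bases and are not independent readings of the gene. No other pair of member probes shared more than 7 bases in a row. GC content ran from 36.7% for Cdkn2a and Cdkn1b probe 1 to 50% for Cdkn1a.

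Signals are Cy3 intensities on a linear scale, called units here, and their 75th percentile was 829 to 1040 units on the 3 arrays. Differences are on the log2 scale after each array was divided by that percentile, and "±" is the error of the scanner software's model, which allows 10% for a bright signal. It holds no biological spread. A slide of its own, scanned separately, held the p53-null MEF array, and the other arrays shared 1 slide and scan, so slide, scan and genotype cannot be told apart. Genes that follow the embryo's sex differed too, with Xist at 7437 units in p53-null MEF and not well above background in MEF, and Eif2s3y of the Y chromosome at 1236 units in MEF and dim in p53-null MEF. All 6 fibroblast markers were well above background on both fibroblast arrays, with unscaled sums of 432641 and 433089 units against 6071 in ES cells. Marker sums below are unscaled as well. Once scaled, the median of the fibroblast markers was -0.43 in p53-null MEF against MEF, with Pdgfra at -2.04 and Col3a1 at -1.05. Spike-in scaling turned the median and Col3a1 positive. Of 6 ES cell markers all were well above background in ES cells, and Pou5f1, Nanog, Zfp42 and Esrrb were not on the fibroblast arrays. Markers of other cell types also differed between the fibroblast arrays. The 6 macrophage markers summed to 288 units in p53-null MEF and 2183 in MEF. Lyz2 alone gave 1980 of these units in MEF and was at -4.30, with its other probe listed at -0.51. Cd68 was at -0.75, and Csf1r and Adgre1 at bounds of -1.62 and -0.03. Ptprc went the other way, at a bound of 1.27. The 4 neural ones summed to 4688 and 5729 units, with S100b at -3.06 and Sox10 at a bound of -3.80. Map2 and Tubb3 went the other way, at 1.18 and 0.44. The 4 adipocyte markers summed to 8999 and 9832 units, with Lpl at -3.30 and Fabp4 at 0.81. The 4 skeletal muscle markers summed to 2805 and 6756 units. Myog was at 1.90 and Acta1 at -1.68, the latter turning positive with spike-in scaling. The 4 endothelial ones summed to 684 and 405 units, with Tek at -3.14 and Kdr at 1.35. The part of these markers in the results was not tested.

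**Figure D1:**
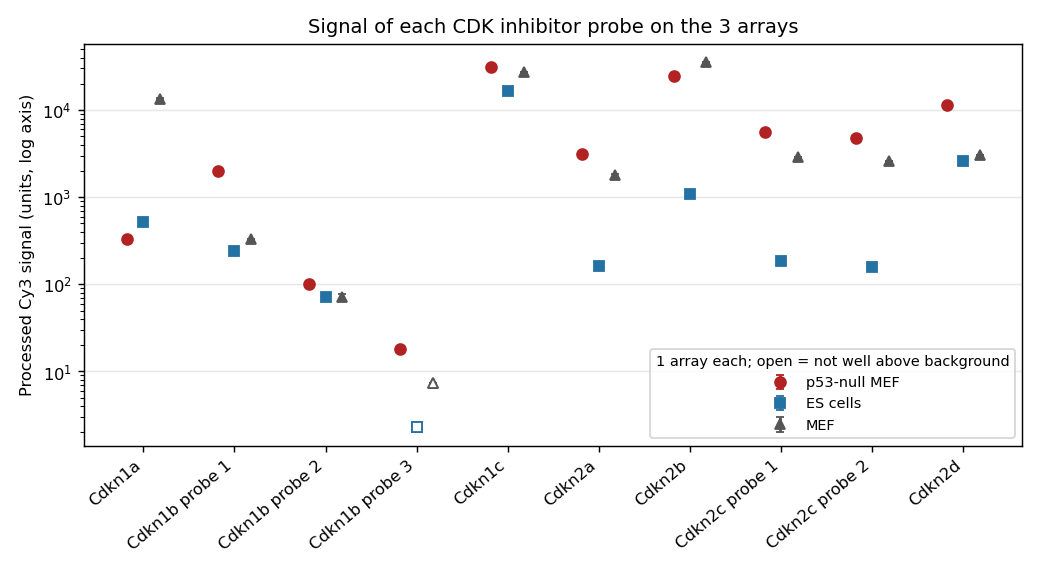
Processed Cy3 signal in units, on a log axis, of the 10 CDK inhibitor probes on the p53-null MEF, ES cell and MEF arrays, with 1 array a group, bars for the SD over spots where a probe had 10 spots, and open symbols for signals not well above background. Cdkn1a was high in MEF alone (13478 units), whereas Cdkn2a, Cdkn2b and Cdkn2c were low in ES cells and high on both fibroblast arrays.

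Cdkn1a, which encodes p21, was bright in MEF and dim on the other arrays. Its probe, at chromosome 17, 28828096 to 28828155, was printed at 10 spots and gave 335 ± 21.9 units (SD over spots) in p53-null MEF, 524 ± 13.5 in ES cells and 13478 ± 373 in MEF. In ES cells the scanner software marked 3 of the 10 spots as outliers, and the value rests on the other 7. The lowest spot in MEF, at 12903 units, was far above the highest in p53-null MEF, at 392, and the highest kept spot in ES cells, at 544. Unscaled spots of the dim arrays did not overlap either, since the lowest in ES cells was 504. Spots repeat the same sample, so this gap describes the arrays and not a difference between samples. How often the spots of other probes lie apart was not counted.

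Against MEF, the p53-null MEF signal of Cdkn1a was 50.5-fold lower, a difference of -5.66 ± 0.20. Of 26541 probes with a difference or, where 1 array was dim, a bound, 15 had a listed value further down, and probes given by a bound may lie lower than listed. With scaling on the spike-in controls the difference was -3.83. In ES cells Cdkn1a was 25.9-fold lower than in MEF, or -4.70 ± 0.20, and 754 of 28379 probes had a lower listed value. ES cells and p53-null MEF, whose Trp53 signals were 4902 and 56.3 units at the gene's brightest probe, thus both had little Cdkn1a signal. Between these dim arrays the difference was 0.96 ± 0.20, higher in ES cells, and it turned to -0.62 with spike-in scaling. It was under 2-fold in either setting.

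RefSeq lists start sites of Cdkn1a at which promoter windows of 300 bases (250 before the start and 50 after it) could be searched, on build GRCm38.p6. The upstream window is shown because p53, the factor missing in p53-null MEF, is known to bind there, and capitals mark matches to the p53 half-site consensus. The downstream window, with none, is set beside it. Each line gives the 100 bases before the start, on the plus strand, at chr17:29090879-29090978 and chr17:29093669-29093768.
Cdkn1a upstream start: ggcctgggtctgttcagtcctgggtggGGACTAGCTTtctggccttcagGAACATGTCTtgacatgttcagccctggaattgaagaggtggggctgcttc
Cdkn1a downstream start: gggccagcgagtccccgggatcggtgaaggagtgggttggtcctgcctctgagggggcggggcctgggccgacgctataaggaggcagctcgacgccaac

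The matches in the upstream window began 73 and 51 bases before the start and had 12 bases between them. The bases that directly follow the second match miss the consensus at their first letter alone, so they are not marked. As the search required every letter, it does not show which of these bases p53 binds. Half-site matches (a palindromic consensus, so both strands are covered) occurred in 8.36% of all 32851 promoter windows. Pairs of them at most 13 bases apart occurred in 24 windows, or 0.0731%. The upstream window held 2 CpG dinucleotides and the downstream window 23, against a median of 7 over all windows. A match describes the letters of the window and no measurement of binding was made here. No window of Cdkn1b, Cdkn2a, Cdkn2b or Cdkn2c held a half-site match, and the Cdkn2d window held 1.

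**Figure D2:**
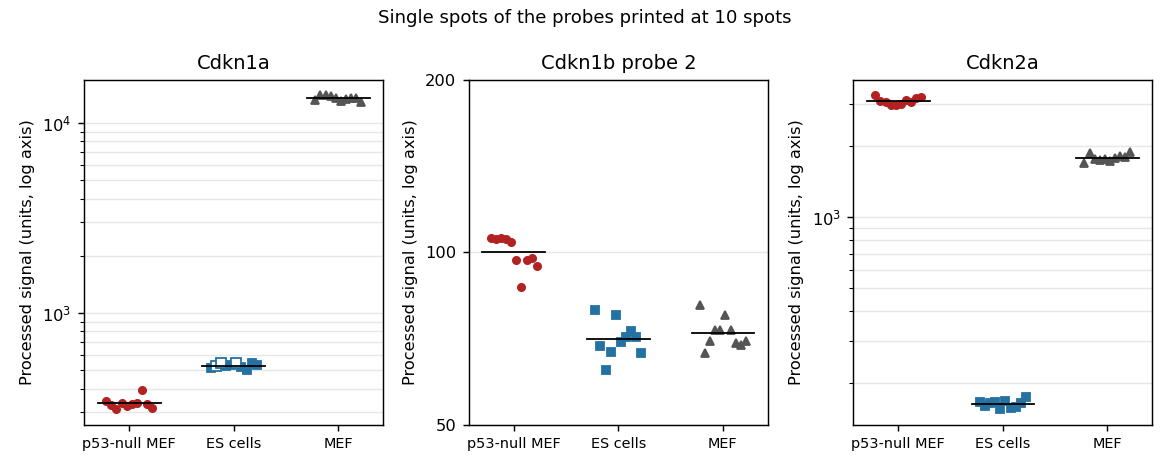
Processed signal in units, on log axes, of every spot of Cdkn1a, Cdkn1b probe 2 and Cdkn2a, each printed at 10 spots on each of the 3 arrays; lines are means of the kept spots and open symbols are spots marked as outliers. Unscaled spots of Cdkn1a and Cdkn2a did not overlap between arrays. Those of Cdkn1b probe 2 overlapped between ES cells (62.3 to 79.4 units) and MEF (66.8 to 80.9 units). They lay higher in p53-null MEF (86.9 to 106 units), though the scaled difference from MEF was 0.14 ± 0.22. Spots repeat 1 sample, and how often the spots of other probes lie apart was not counted.

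Cdkn1b, which encodes p27, gave different answers at its probes. Probe 1, at chromosome 6, 134890890 to 134890949, was designed on the cDNA AK169586 and does not list the RefSeq transcript. Its single spot gave 2006 units in p53-null MEF, 239 in ES cells and 332 in MEF. This probe stood out in p53-null MEF, at 4.82-fold above MEF (2.27 ± 0.20) and with ES cells 6.73-fold below it (-2.75 ± 0.20). ES cells and MEF differed little, by -0.48 ± 0.20.

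Probe 2 of Cdkn1b, which lists transcript NM_009875, starts 4112 bases before probe 1. Over 10 spots it gave 100 ± 6.38 units in p53-null MEF, 70.7 ± 5.13 in ES cells and 72.3 ± 4.31 in MEF. Once scaled, the differences were 0.14 ± 0.22 for p53-null MEF against MEF, -0.04 ± 0.22 for ES cells against MEF and -0.18 ± 0.22 for ES cells against p53-null MEF, all within the error of the model. With other settings the first of these ran from -0.03 with normexp background correction to 1.97 with spike-in scaling. The second turned to 0.21 with spike-in scaling. The third ran from -1.76 with spike-in scaling to 0.0029 with normexp correction. Probe 3, 2503 bases after probe 2 and on the same transcript, gave 17.9 units in p53-null MEF. It was not well above background in ES cells (2.29 units) or MEF (7.39 units), so only a bound could be given, with p53-null MEF above MEF by at least 1.15-fold.

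The probes of Cdkn1b therefore lay 2.13 apart on the log2 scale for p53-null MEF against MEF, counting those measured on both arrays. Of 5548 genes with several such probes, 93.9% had a smaller spread, and the median spread was 0.63. For ES cells against MEF the spread was 0.44, near the median of 0.47 over 5405 genes. Which transcript each probe reads was not tested.

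Cdkn1c, which encodes p57 and is expressed from the maternal allele, was bright on every array. Its spot at chromosome 7, 143268238 to 143268297, gave 30904 units in p53-null MEF, 16387 in ES cells and 27463 in MEF. The fibroblast arrays differed by -0.16 ± 0.20, within the error of the model, and by 0.17 with no scaling and 1.67 with spike-in scaling. ES cells were 1.69-fold lower than MEF (-0.75 ± 0.20) and 1.51-fold lower than p53-null MEF (-0.60 ± 0.20). It thus stayed under 2-fold in all comparisons with 75th percentile scaling.

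Genes known as imprinted neighbours of Cdkn1c, or of the adjoining Igf2 and H19 domain, were given as a list of 10, of which Kcnq1ot1 was not found among the array's gene labels and Kcnq1 gave no difference, being dim on the fibroblast arrays and without a kept spot in ES cells. Between the fibroblast arrays 1 of the 8 genes with a value was higher in p53-null MEF by 2-fold or more and 3 were lower, with a median of -0.50, beside 18.6% and 16.6% of all 17390 gene labels. Phlda2, a growth-restraining gene of the same imprinted cluster, was the higher one at 3.17, with its other probe listed at 1.92. Slc22a18, a transporter gene beside it, was lower by 4.65 on the log2 scale (by 1.93 at another probe) and H19, a noncoding RNA, by 2.26. Against MEF, ES cells had 1 higher and 5 lower genes, beside 32.9% and 27.3% of 18660 gene labels. Phlda2 was higher by 7.78, while the growth factor gene Igf2 was lower by 7.44 and H19 by 8.58. Cdkn1c did not share these large differences.

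**Figure D3:**
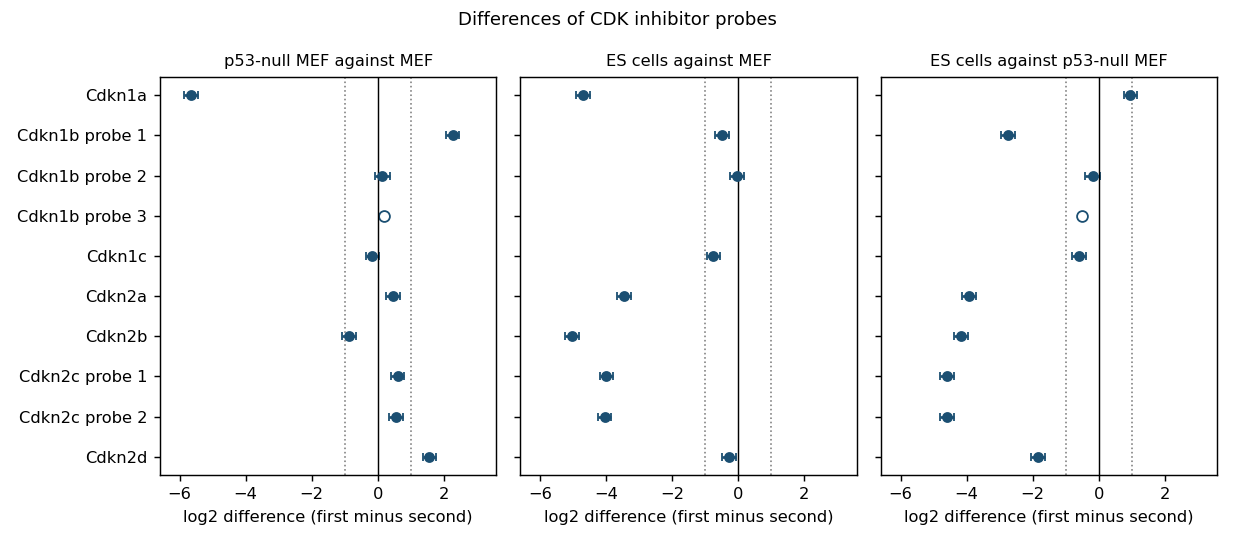
Log2 differences (first group minus second) of the 10 probes in the 3 comparisons, each between 1 array and 1 array; bars are the error model of the scanner software, open symbols are bounds, and dotted lines mark 2-fold. In ES cells the Cdkn2a, Cdkn2b and Cdkn2c probes lay between -3.47 and -5.04 against MEF, and Cdkn1a was the one probe far below 0 between the fibroblast arrays.

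Cdkn2a was well above background on every array and far dimmer in ES cells. Its probe, at chromosome 4, 88745872 to 88745931, lists transcripts NM_009877 and NM_001040654, so it cannot tell Arf from Ink4a. Over 10 spots it gave 3103 ± 99.0 units in p53-null MEF, 163 ± 5.68 in ES cells and 1785 ± 59.8 in MEF. ES cells were 11.0-fold lower than MEF (-3.47 ± 0.21) and 15.3-fold lower than p53-null MEF (-3.94 ± 0.21). The fibroblast arrays differed by 0.47 ± 0.20, or 1.39-fold higher in p53-null MEF, which spike-in scaling moved to 2.30.

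The promoter table holds a window for each of the start sites behind this probe. The upstream one is known as the Arf promoter and the downstream one as the Ink4a promoter, and they are shown because 1 probe sums what both make. Each line gives the 100 bases before the start on the minus strand, at chr4:89294620-89294719 and chr4:89282193-89282292 of GRCm38.p6, and capitals mark the E2F-like motif TTTNNCGC.
Cdkn2a upstream start: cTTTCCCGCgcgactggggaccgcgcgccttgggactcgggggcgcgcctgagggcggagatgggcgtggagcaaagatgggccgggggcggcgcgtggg
Cdkn2a downstream start: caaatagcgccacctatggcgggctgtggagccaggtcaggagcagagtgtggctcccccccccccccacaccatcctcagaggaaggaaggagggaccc

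This motif, searched on both strands, was found 1 time in each of these windows, 99 bases before the upstream start and 244 bases before the downstream one, outside the bases shown. It occurred in 5.17% of all windows and in no other member's window. The upstream window held 45 CpG dinucleotides, more than 98.1% of all windows, and the downstream window 12. The GC box GGGCGG, also on both strands, was found 3 times upstream and 1 time downstream, and at least 1 time in 35.7% of all windows. No window of Cdkn1c was in the table.

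Cdkn2b, which encodes p15, lies beside Cdkn2a, and on mm8 their probes start 31892 bases apart on the same strand. Its spot at chromosome 4, 88777764 to 88777823, gave 24412 units in p53-null MEF, 1083 in ES cells and 35385 in MEF. ES cells again stood apart, at 32.9-fold below MEF (-5.04 ± 0.20) and 18.1-fold below p53-null MEF (-4.18 ± 0.20). It was the member with the largest difference of ES cells from MEF, with 571 of 28379 probes at a lower listed value. Between the fibroblast arrays it was 1.82-fold lower in p53-null MEF (-0.86 ± 0.20), the opposite side from Cdkn2a, but spike-in scaling turned this to 0.97.

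Of the genes flanking this locus, Mtap, a methionine salvage enzyme gene, gave 5458 units in p53-null MEF, 1720 in ES cells and 4369 in MEF. It was lower by 1.35 in ES cells than in either fibroblast sample, a smaller difference than those of Cdkn2a and Cdkn2b. Dmrta1 was dim in both fibroblast samples, with no difference to give between them.

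Cdkn2c, which encodes p18, was lower in ES cells at both of its overlapping probes. Probe 1, at chromosome 4, 109159106 to 109159165, gave 5541 units in p53-null MEF, 184 in ES cells and 2907 in MEF. Probe 2 gave 4772, 158 and 2594 units in the same order. Against MEF, ES cells were 15.9-fold lower at probe 1 (-3.99 ± 0.20) and 16.5-fold lower at probe 2 (-4.05 ± 0.21). Against p53-null MEF the folds were 24.1 and 24.2. The fibroblast arrays differed by 0.60 ± 0.20 and 0.55 ± 0.20, higher in p53-null MEF.

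Cdkn2d, which encodes p19Ink4d, was the Ink4 gene with the smallest difference between ES cells and MEF. Its spot at chromosome 9, 21038938 to 21038997, gave 11484 units in p53-null MEF, 2573 in ES cells and 3088 in MEF. The p53-null MEF signal was the high one, 2.96-fold above MEF (1.57 ± 0.20), and ES cells lay 3.58-fold below it (-1.84 ± 0.20). ES cells differed from MEF by -0.27 ± 0.20.

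Between the fibroblast arrays, 1 of 10 member probes was lower by 2-fold or more in p53-null MEF (Cdkn1a) and 2 were higher by as much (Cdkn1b probe 1 and Cdkn2d). Of all 26541 probes, 16.6% were lower and 19% higher by that much, so the counts of members lie near the background. At 4-fold 1 member probe was higher and 1 lower, beside 5.36% and 4.32% of all probes. Their median difference was 0.34, against 0.04 over all probes. Higher probes made up 53.4% of all probes past 2-fold, 72% with no scaling and 97.9% with spike-in scaling, which added 1.83 to every difference of this comparison. A difference between -1.83 and 0 therefore changes sign with it, and 8 member probes were then higher by 2-fold or more.

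In ES cells against MEF, 5 of 9 probes with a value, from 4 genes, were at least 2-fold lower (Cdkn1a, Cdkn2a, Cdkn2b and both of Cdkn2c) and 0 were higher. The same 5 were also at least 4-fold lower. All probes gave 26.4% lower and 33.8% higher at 2-fold, and 14.7% lower and 16.8% higher at 4-fold. The median of the member probes was -3.47 and that of all probes 0.25. In ES cells against p53-null MEF, 6 of 10 probes from 5 genes were at least 2-fold lower and 0 higher, beside 22.9% and 27.5% of 27934 probes. Here Cdkn1b probe 1 and Cdkn2d were counted and Cdkn1a was not, and the medians were -2.30 and 0.22. At 4-fold 5 probes were lower and 0 higher, beside 11.7% and 10.8%. Counted by gene label and brightest probe, 23.9% of 18299 were lower by 2-fold or more and 27% higher in this comparison. Higher probes were 54.5% of those past 2-fold in all, 44.2% with median scaling, 41.9% with no scaling and 10.1% with spike-in scaling. The comparisons share arrays, so their counts are not independent of each other, and in such bulk samples fewer cells of a type and less RNA per cell cannot be told apart.

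**Figure D4:**
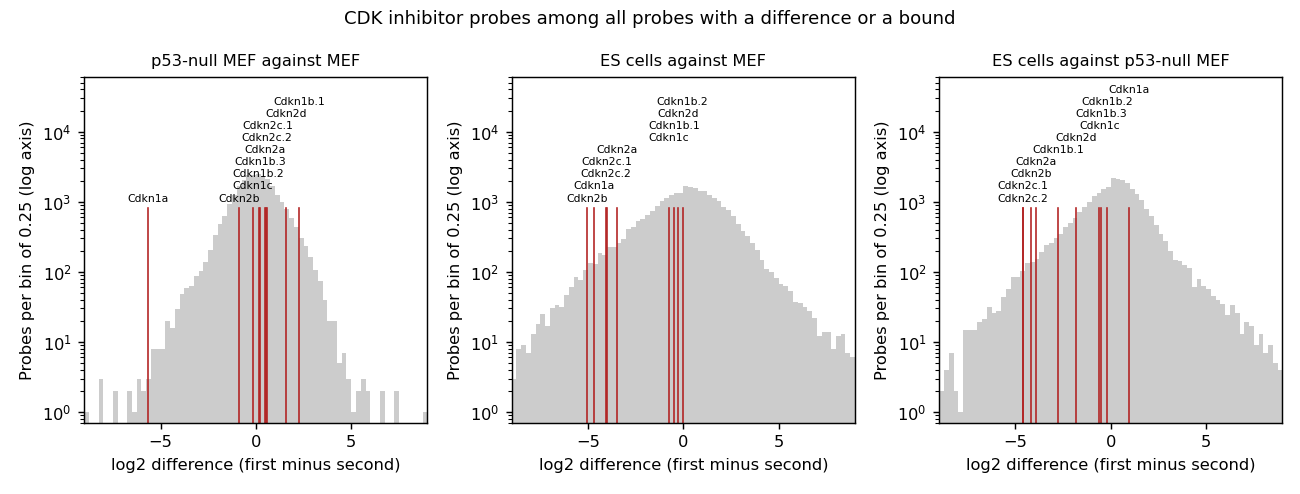
Number of probes in bins of log2 difference (first group minus second), on a log axis, for all probes with a difference or a bound in the 3 comparisons, with a red line for each CDK inhibitor probe (a number after the dot is the probe). Cdkn1a sits at the lower edge between the fibroblast arrays at -5.66, and against MEF the ES cell values of the members fall into a set from -5.04 to -3.47 and a set from -0.75 to -0.04.

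Markers of proliferating cells differed alongside these genes. All 6 of Mki67, Top2a, Pcna, Ccnb1, Cdc20 and Mcm2 were well above background on the 3 arrays, and each exceeded its MEF level by 2-fold or more in p53-null MEF and in ES cells. Their summed signal was 133200 units in p53-null MEF, 191077 in ES cells and 25520 in MEF, and their part in the differences of the inhibitor genes was not tested.

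The partners of the inhibitors were described by the brightest probe of each gene. The counts that follow are to be read beside the shares of all gene labels past 2-fold. In p53-null MEF against MEF 18.6% were higher and 16.6% lower, and in ES cells against MEF 32.9% and 27.3%. Of the D-type cyclins and their kinases, the targets of Ink4 proteins, 0 of 5 were higher in p53-null MEF by 2-fold or more and 2 were lower. Ccnd1 was lower by 2.06 and Ccnd2 by 1.36, the latter turning positive with spike-in scaling, and Cdk6 and Cdk4 differed by 0.82 and 0.34. In ES cells 3 of 5 were lower than in MEF and 0 higher. Ccnd2 was at -3.93, Ccnd1 at -3.08 and Cdk6 at -1.03, but other Cdk6 probes reached 2.56. Cdk4 had 15184 units in p53-null MEF, 14525 in ES cells and 9559 in MEF. Once scaled, its difference for ES cells against p53-null MEF was 0.25 ± 0.20, which spike-in scaling turned negative. Cdkn2a, Cdkn2b and Cdkn2c were thus low in ES cells beside low Ccnd1 and Ccnd2 signals, while Cdkn2d and Cdk4 differed by less than 2-fold, and no relation between them was tested.

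Cyclins E, A and B and their kinases, the partners that Cip/Kip proteins bind, were above 0 in both comparisons with MEF. At least 2-fold higher were 5 of 7 in p53-null MEF and 7 of 7 in ES cells against MEF. Of all gene labels 18.6% and 32.9% were. The medians of the 7 genes were 2.43 and 3.04. In p53-null MEF the largest differences were those of Ccne2 at 2.99, Ccna2 at 2.95, Ccnb1 at 2.59 and Cdk1 at 2.43. In ES cells they were Ccnb1 at 4.09, Ccna2 at 3.19, Ccnb2 at 3.09 and Ccne1 at 3.04. Cdk2, the classical target of p21 and p27, was at 0.60 in p53-null MEF and 1.64 in ES cells.

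Among the Rb family, pocket proteins that these kinases inactivate, Rbl1 was higher by 1.89 in p53-null MEF, whereas Rbl2 and Rb1 were at -1.19 and -0.92 and turned positive with spike-in scaling. No Rb family gene was 2-fold different in ES cells against MEF. Of 8 E2f genes, the factors that pocket proteins hold, 2 passed 2-fold upwards in p53-null MEF. These were E2f7 at 2.13 and E2f8 at 1.95 (0.93 at its other probe). In ES cells 5 were higher and 1 lower than in MEF, with E2f8 at 3.87 (0.49 at its other probe), E2f2 at 3.08, E2f4 at 2.48 and E2f5 at 1.85.

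**Figure D5:**
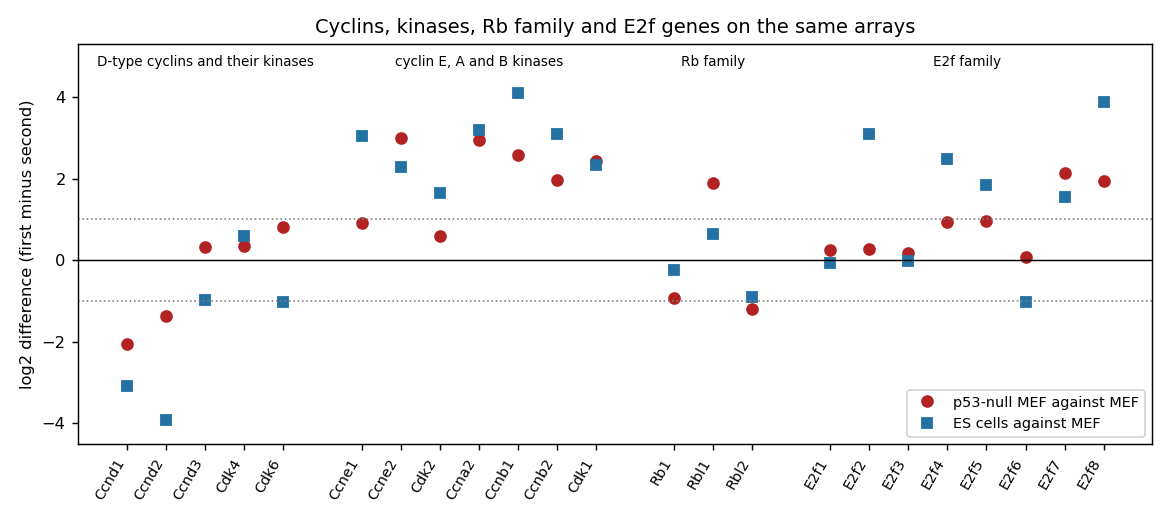
Log2 differences of the brightest probe of each gene for D-type cyclins and their kinases, cyclins E, A and B with their kinases, the Rb family and the E2f family, in p53-null MEF against MEF (circles) and ES cells against MEF (squares), 1 array a group, with dotted lines at 2-fold. Ccnd1 and Ccnd2 lie below 0 in both comparisons, from -1.36 to -3.93 (Ccnd2 in p53-null MEF turns positive with spike-in scaling), while all 7 genes of cyclins E, A and B lie above 0.

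Genes listed under the turnover of Cip/Kip proteins were mixed, and the part of each gene in that turnover was not tested. Of 10 listed, 3 were at least 2-fold higher and 2 lower in p53-null MEF. Dtl, which brings p21 to the Cul4 ligase in S phase, was at 2.08, with another probe at 0.73. Skp2, the ligase subunit that takes up p27, was at 1.81, with its other probe at 1.62. Rnf123, a ligase subunit for p27 in G1, was at -1.57 and Fbxo4 at -1.23, with other probes at -0.55 and 0.35, and both turned positive with spike-in scaling. In ES cells 5 were higher and 3 lower than in MEF, beside 32.9% and 27.3% of all gene labels. Skp2 and Dtl were each at 3.11, with Fbxo4 at -3.48 and Rnf123 at -1.86, or -0.46 and -0.90 at the probes nearest to 0. Skp2 itself gave 1714 units in p53-null MEF, 3379 in ES cells and 390 in MEF.

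Trp53, the p53 gene, was at -4.87 in p53-null MEF at its brightest probe and -1.46 at another, and in ES cells at 1.90 and -0.92. The value of -1.46 turned positive with spike-in scaling, and the labels do not describe the null allele. Among all 5 genes of p53, its relatives and its regulators, 1 was higher in p53-null MEF by 2-fold or more and 3 were lower. Trp63, a p53 relative, was at -2.04. Mdm2, the target of Arf and itself activated by p53, was lower by 1.22 at its brightest probe, which spike-in scaling turned positive, and by 3.43 at another. Mdm4, its relative, was higher by 1.08. Against MEF, ES cells had 3 higher and 1 lower, with Mdm4 at 2.70, Trp73 at 1.79 and Trp63, dim in ES cells, at a bound of -2.97. Mdm2 was at 0.02, and below 0 with median scaling.

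Of 9 listed activators of Cip/Kip genes, 8 were measured between the fibroblast arrays, with 0 higher by 2-fold or more and 2 lower. Klf4, a factor known to act on Cdkn1a and used to make iPS cells, was at -2.65, and Smad3 of the TGF-beta pathway at -1.01, or -0.13 at another probe. Both Smad3 values turned positive with spike-in scaling, and that of Klf4 stayed below 0. In ES cells 2 were higher and 2 lower than in MEF. Smad3 was at -2.85 and Sp1, a GC box factor, at 2.75, with Foxo3 at a bound of 1.64 and Klf6 at -1.38, while Klf4 was at -0.28.

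Polycomb and other known repressors of the Ink4 genes differed widely in ES cells. Of 22, 9 were at least 2-fold higher and 9 lower than in MEF, beside 32.9% and 27.3% of all gene labels, and the median was -0.06. Cbx7, the chromobox protein of Polycomb in ES cells, gave 8511 units there against 103 in p53-null MEF and 68.7 in MEF, a difference of 6.94 from MEF. Phc1 was at 4.26, Ezh2, the histone methyltransferase, at 3.57, and Suz12 and Eed, its partners, each at 3.38. Id3 was at -3.31, Cbx8 at -3.10 and Tbx2 at -3.05. Bmi1, known for silencing Cdkn2a in fibroblasts, was at -1.57 in ES cells. No relation of the repressor genes to the Ink4 signals was tested. Between the fibroblast arrays 4 of the 22 were higher in p53-null MEF by 2-fold or more and 1 lower. Of all gene labels 18.6% were higher and 16.6% lower, so the higher repressors lie near the background. Suz12 was at 2.15, Ezh1 at -1.89, Ezh2 at 1.83 and Eed at 1.18.

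Of 7 known activators of Cdkn2a, Cdkn2b and Arf, 0 were 2-fold different between the fibroblast arrays. In ES cells 1 was higher and 3 lower than in MEF. Jun, the AP-1 subunit, was at -3.72, Ets1 and Ets2, which act on Ink4a, at -2.67 and -1.88, and Dmtf1, which acts on Arf, at 1.94. Among 5 partners of Arf 1 was higher in p53-null MEF by 2-fold or more and 1 lower. Npm1, the nucleolar protein that holds Arf, was at 1.51 and Mdm2 at -1.22, which turned positive with spike-in scaling. In ES cells 3 were higher than in MEF and 0 lower, with Npm1 at 1.98 and Cdkn2aip at 1.41.

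Genes whose signals over the 3 arrays were most like a member's were sought among 14283 gene labels well above background on all of them. Likeness was the distance between log2 signals after each was centred on its mean over the 3 arrays. With so few arrays, for most members many genes lay close, and likeness says nothing of shared function. For Cdkn1a, 0 genes lay within 0.5, and the nearest were Galnt9 at 0.52, Serpine2 at 0.67 and Slc22a4 at 0.72. For Cdkn1b probe 1 there were 42 genes within 0.5, the nearest being 2010003D24Rik, Nexn and Rell1. For Cdkn2a there were 138, led by Pxdc1, Fam102b and Hmgn3, and for Cdkn2c probe 1 there were 85, led by Clmp, Gulp1 and Sncaip. For Cdkn2b there were 124, of which S1pr3 was the nearest with a gene symbol. Cdkn2d had 206, with 1700086L19Rik and Dact1 among the nearest, and Cdkn1c 1708, with Smdt1, Galnt1 and Dda1 at its side.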

How the data were processed

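Cy3-labelled total RNA of each of the 3 samples was measured on a 1-colour Agilent mouse array, 1 array a group, with the same probes on each. The deposited scanner files hold spot intensity on a linear scale from Feature Extraction 9.5.3.1, after background subtraction and detrending within each array, per the file headers. The authors' deposited value table held the same intensity, with ratios to it between 0.995 and 1.005 and column medians of 51.8, 50 and 43.2, so its scale is linear and it carries no centring or direction.

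From these, log2 was taken, the 75th percentile of each array (over its 43379 spots that are no controls) was subtracted, spots marked as uneven or outliers (62 to 192 an array) were left out, and spots of a probe were averaged. A probe counted as well above background if 50% or more of its spots carried that mark. Where 1 array of a pair was not, its signal was replaced by the lowest one well above background there, if higher, giving a bound. No member spot was saturated. The fold that counts as different was 2. With 1 array a group no test was made, and the number of arrays limits the precision. The calculation was tested on simulated data.

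Named were all member probes and, in each of 12 lists, up to 4 genes with the largest difference in a comparison, and Trp53. Other genes were added where a sentence turns on them, chosen after their values were seen. For each member, the 3 nearest genes were sought. The members and lists were chosen with earlier results of these data known. Gene labels came from the RefSeq table of GRCm38.p6: 24375 probes matched by accession, 6301 by symbol and 2426 by synonym, and 8072 kept the design file's name. Promoter sequences are RefSeq's, of GRCm38.p6, and probe sequences come from the scanner files. Alternatives were median, quantile, spike-in and no scaling, a percentile over detected probes, normexp correction (offset 50, limma 3.58.1, R 4.3.3), marked spots kept, no filter on dim probes, the value table, a 4-fold threshold, and the mean or median of a gene's probes. Python 3.11.15, pandas 2.3.3 and numpy 2.4.6 were used.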

Additional observations from a re-analysis of the deposited data

How the results depend on the processing

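No paired analysis was possible because each group was 1 array. With scaling on the spike-in controls, 9 member probes in place of 3 were at least 2-fold different between the fibroblast arrays and 8 in place of 2 were higher in p53-null MEF. At 4-fold 1 was higher. The other counts of member probes in the 3 comparisons were within 1.5 times the reported ones under every alternative tried. Some of them still rose with spike-in scaling. In ES cells against p53-null MEF it moved Cdkn1b probe 2 to -1.76 and Cdkn1c to -2.18. Both thus passed 2-fold downwards, as did Cdkn1b probe 3, given by a bound, in addition to the 6 probes counted before. No member difference of 2-fold or more changed sign under any alternative. The share of all probes at least 2-fold higher and lower in p53-null MEF was 19% and 16.6%, 11.4% and 10.4% with normexp correction, 28.1% and 10.9% with no scaling, and 80.7% and 1.73% with spike-in scaling. In ES cells against p53-null MEF the shares of 27.5% and 22.9% became 7% and 62% with spike-in scaling. Median scaling moved every difference of ES cells by -0.22 against MEF and -0.26 against p53-null MEF. Of the list counts, 133 stayed within 1.5 times and 11 did not when the mean or the median of a gene's probes stood for it. Dim signals limit Cdkn1b probe 3.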
